A study of Homo sapiens with 36 samples.

Results

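TRAP-1-NegP was set against DMSO after 2 h of exposure, in 6 of the 36 libraries of a study of 5 compounds and their solvent. The cells were BxPC-3, an established human pancreatic adenocarcinoma line of wild-type genotype, grown in RPMI 1640 with fetal bovine serum in 6-well plates. The compared groups were TRAP-1-NegP at 3 µM for 2 h and the solvent DMSO for 2 h, with 3 libraries each. The comparison covered 14988 of the 29744 genes in the deposited table, those that passed a filter on low counts. Further groups of 3 libraries served for comparison, namely TRAP-1-NegB, JQ1, TRAP1 and MS78 at 3 µM for 2 h, and TRAP-1-NegP at 3 µM and DMSO for 4 h. TRAP1 stands here for the compound and not for the gene of that symbol, and the labels do not say what NegP and NegB stand for. All groups used 1 cell line, and replicate libraries are not said to come from separate cultures. The p-values below therefore measure the spread between libraries, which may be technical only.

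JQ1 is a known inhibitor of the BET proteins, such as BRD2 and BRD3, which bind acetylated histones at enhancers and promoters. BET proteins are known to help recruit P-TEFb, the kinase CDK9 with cyclin T, which releases paused RNA polymerase II. HEXIM1, together with the 7SK RNA, holds P-TEFb in an inactive form. In many cell types the transcripts of HEXIM1, SERPINI1, BRD2 and several histone genes are known to increase under BET inhibitors, and MYC is known to decrease. Short-lived transcripts such as those of immediate early genes can move within hours of such a block.

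The 6 libraries held between 15779012 and 21978231 estimated counts, and the 36 libraries between 15288688 and 26608325. Levels are CPM, counts scaled to a common library total after adjustment by the TMM factor, changes are log2 fold changes of TRAP-1-NegP over DMSO, and errors of changes are SE. A gene was called changed at a Benjamini-Hochberg adjusted p under 0.05 from edgeR's quasi-likelihood test. Replicate libraries correlated across genes at r = 0.975 to 0.980. All 14 ductal and epithelial markers were tested, with a summed level of 19360 to 19875 CPM in TRAP-1-NegP libraries and 14661 to 14832 CPM in DMSO libraries. Of 13 acinar and endocrine pancreas markers in the table, 11 had a count of 0 in all 6 libraries, among them CPA1, INS and GCG. Their list summed to 7.33 to 10.1 CPM under TRAP-1-NegP and 4.86 to 6.64 CPM under DMSO. Mesenchymal markers summed to 11.2 to 14.6 against 8.85 to 9.24 CPM, and blood and endothelial markers to 31.8 to 37.6 against 29.3 to 35.02 CPM. No tested member of these last 3 lists was called (0 of 2, 0 of 6 and 0 of 6), though 1 mesenchymal marker was called higher without DMSO replicate 2 or without TRAP-1-NegP replicate 3 or with a correction for GC content and length. In the acinar and endocrine list, 1 marker was called higher with a stricter count filter, with the replicate number as a block and in a fit of only the groups compared. In bulk RNA of this kind, fewer cells expressing a gene and less of its RNA per cell cannot be told apart, nor can a change in total RNA be seen.

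The DMSO libraries of 2 h stood apart from the rest of the series in part of the genes, as did those of some 4 h groups. Of 10326 genes that averaged 5 CPM or more in the whole series, 338 had all 3 DMSO libraries of 2 h outside the range of the other 33 libraries, with 120 above it and 218 below it. For TRAP-1-NegP libraries of 2 h the same count was 29, and for DMSO libraries of 4 h it was 115. It was larger for JQ1 and TRAP1 at 4 h, at 926 and 833, and was 150 for TRAP-1-NegP at 4 h. Among the other groups of 2 h the largest count was 116, for JQ1. Of those 338 genes, 335 were called in TRAP-1-NegP against DMSO at 2 h, 218 higher and 117 lower. They made up 7.85% of the 4268 calls at this level, and the other 3933 calls lay outside the set. In some genes named below, DMSO at 4 h minus DMSO at 2 h lay close to their change, such as PTTG1 (0.70), AFF1 (-0.57), SLC7A11 (-0.56), NFKB2 (0.40) and BAX (0.32). In others it did not, such as INSIG1 (-0.06), HEXIM1 (0.05) and HAS2 (-0.31). The part of the DMSO libraries in these calls was not tested. TRAP-1-NegP minus TRAP-1-NegB at 2 h, a difference that uses no DMSO library, is therefore given beside the lists and some of the genes. TRAP-1-NegB is not a solvent control, and TRAP-1-NegB minus DMSO at 2 h called 761 genes higher and 880 lower. A difference from TRAP-1-NegB can therefore hold changes of either compound.

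TRAP-1-NegP changed many transcripts, most of them by small amounts. A total of 4542 genes were called, 30.3% of those tested, with 2462 higher (16.4%) and 2080 lower (13.9%). The balance between directions was not firm, with 2157 higher and 2335 lower without the count filter and 2920 and 2944 in a fit of only the groups compared. The called rises had a median of 0.44 and the called falls a median of -0.53, while the median over all tested genes was 0.01. Only 484 calls reached 2-fold (3.23%), 231 of them rises and 253 falls, and 4-fold was reached by 74 rises and 35 falls. All 3 libraries of 1 group lay above all 3 of the other for 4451 calls (98.0%), an arrangement found in 47.2% of all tested genes. TRAP-1-NegP minus TRAP-1-NegB called 3830 genes (25.6%), with 2241 higher (15%) and 1589 lower (10.6%). That balance turned to 1716 higher and 1959 lower without the count filter and to 2412 and 2487 in only the groups compared.

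**Figure D1:**
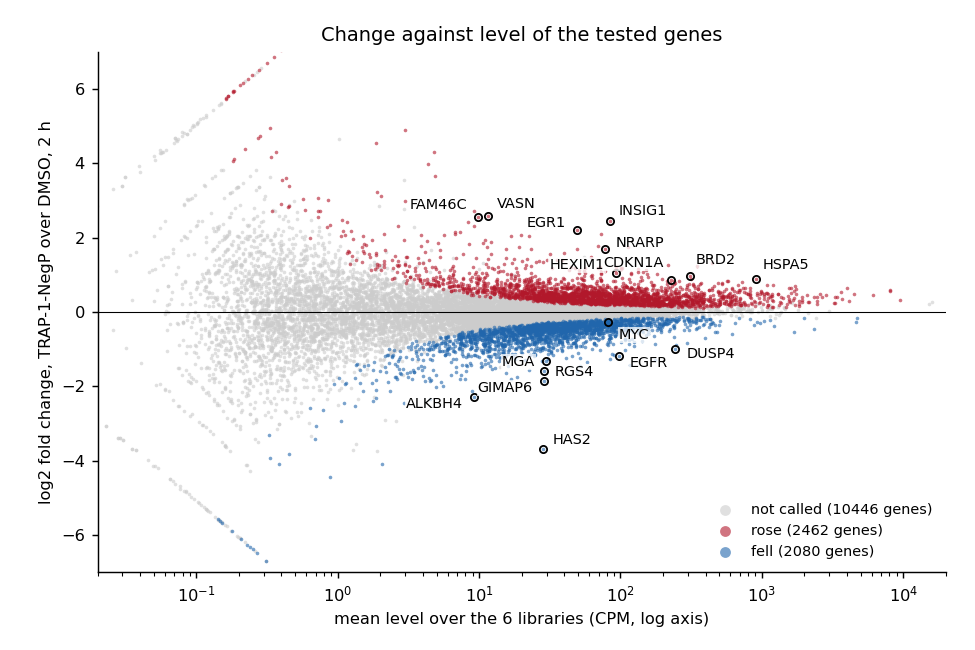
Log2 fold change of TRAP-1-NegP over DMSO at 2 h (vertical axis) against the mean level over the 6 libraries in CPM on a log axis (horizontal), with 1 point per tested gene, coloured where called at an adjusted p under 0.05; 35 genes lie outside the axes. Called genes lie on both sides of 0 at all but the lowest levels, with HAS2 at -3.70 and INSIG1 at 2.45 among the named extremes.

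A TATA box, TATAAA, stood in a larger share of the promoters of the strongest rises than of all tested genes, and those of 3 such genes are printed for that reason. Promoters were RefSeq windows of GRCh38.p14, from 250 bases before to 50 bases after a gene's start, and 11312 tested genes matched one. TATAAA stood on either strand in 20.9% of those of the rises of at least 2-fold (37 of 177). It stood in 6.59% of those of the falls of at least 2-fold (12 of 182), in 6.29% of those of all tested genes and in 11.95% of all 27305 promoters. A match is a description of letters and not a bound site. The 120 bases before the start are given 5′ to 3′ on the plus strand, on which all 4 genes lie, with TATAAA in capitals for HEXIM1 (chr17:45148355-45148474), INSIG1 (chr7:155297758-155297877) and FOS (chr14:75278708-75278827). EGR1 (chr5:138465359-138465478) is added with capitals on CArG boxes, a serum response factor motif, present in 1.07% of promoters of tested genes and 1.29% of all promoters. CArG boxes stood in 1.69% of promoters of rises of at least 2-fold (3 of 177). For falls of at least 2-fold the share was 1.65% (3 of 182), so this motif did not separate the directions.
HEXIM1: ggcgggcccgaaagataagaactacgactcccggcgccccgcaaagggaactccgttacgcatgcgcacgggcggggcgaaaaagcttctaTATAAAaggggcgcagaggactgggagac
INSIG1: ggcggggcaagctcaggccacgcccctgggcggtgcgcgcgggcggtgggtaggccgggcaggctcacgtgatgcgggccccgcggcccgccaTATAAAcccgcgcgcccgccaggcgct
FOS: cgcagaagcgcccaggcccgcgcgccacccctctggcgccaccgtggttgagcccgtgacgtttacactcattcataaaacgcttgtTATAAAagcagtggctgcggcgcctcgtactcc
EGR1: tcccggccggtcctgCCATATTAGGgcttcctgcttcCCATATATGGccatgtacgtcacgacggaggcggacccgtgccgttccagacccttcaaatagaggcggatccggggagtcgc
TATAAA begins 29 bases before the start of HEXIM1, 27 bases before that of INSIG1 and 33 bases before that of FOS. The CArG boxes of EGR1 begin 105 and 83 bases before its start. The levels of these genes follow below.

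Among the 15 largest rises by the naming rule, the feedback gene INSIG1 was the most abundant, and the rest included receptors, ligands, early transcription factors and a histone gene. The rule took called genes that averaged 5 CPM or more in the 6 libraries and whose groups did not overlap. INSIG1, which retains the sterol regulator SCAP in the endoplasmic reticulum, had 142, 144 and 141 CPM in the TRAP-1-NegP libraries, against 27.6, 23 and 27.2 CPM in the DMSO libraries. That is a rise of 2.45 ± 0.077 (adjusted p = 6.3e-32), with the groups far apart and each group tight. VASN, a membrane protein known to bind TGF-beta (GRCh38 chromosome 16, 4371848 to 4383528), had 22.2, 16.7 and 20.1 CPM in the TRAP-1-NegP libraries, against 3.29, 2.44 and 4.08 CPM in the DMSO libraries, a rise of 2.59 ± 0.21. BAMBI, a decoy receptor of the TGF-beta family (chromosome 10, 28677342 to 28682939), had 16, 13.6 and 12.4 CPM in the TRAP-1-NegP libraries, against 2.35, 3.02 and 2.43 CPM in the DMSO libraries, a rise of 2.42 ± 0.24. Both inhibitors of this signalling family were thus higher in every TRAP-1-NegP library than in any DMSO library. FAM46C, a noncanonical poly(A) polymerase (chromosome 1, 117605934 to 117628372), had 18, 14.2 and 18.3 CPM in the TRAP-1-NegP libraries, against 1.49, 3.28 and 3.76 CPM in the DMSO libraries, a rise of 2.57 ± 0.28. TNFSF9, which binds the T-cell costimulatory receptor 4-1BB (chromosome 19, 6530999 to 6535928), had 14.5, 15.8 and 15.6 CPM in the TRAP-1-NegP libraries, against 3.65, 3.28 and 2.29 CPM in the DMSO libraries, a rise of 2.31 ± 0.19. All 4 are annotated as protein-coding genes.

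EGR1, an immediate early zinc finger factor (chromosome 5, 138465490 to 138469315), had 82.9, 81.8 and 77.7 CPM in the TRAP-1-NegP libraries, against 16.7, 18 and 18.2 CPM in the DMSO libraries, a rise of 2.19 ± 0.11 (adjusted p = 1.8e-22). CTGF, a secreted matricellular protein and known YAP target, had 9.91, 11.9 and 10.8 CPM in the TRAP-1-NegP libraries, against 2.71, 2.73 and 2.11 CPM in the DMSO libraries, a rise of 2.11 ± 0.34. KLF2, a Krüppel-like transcription factor, had 6.51, 11 and 9.98 CPM in the TRAP-1-NegP libraries, against 1.80, 2.10 and 2.61 CPM in the DMSO libraries, a rise of 2.07 ± 0.29. These 3 rapid-response genes were higher in each TRAP-1-NegP library than in any DMSO library. HIST1H2BD, an H2B histone gene, had 30.8, 30.9 and 33.9 CPM in the TRAP-1-NegP libraries, against 8.21, 8.19 and 6.14 CPM in the DMSO libraries, a rise of 2.08 ± 0.14. The DMSO libraries lay below the 8.67 to 59.2 CPM of the other 33 libraries for this gene, and TRAP-1-NegP minus TRAP-1-NegB was 1.58 ± 0.14. The other rises were OSR2, a zinc finger developmental factor (2.16), AMIGO3, an adhesion molecule (2.15), ZCCHC24 (2.05) and RP11-362F19.1 (2.04). LOC101928589 (2.71) and LOC102723728 (2.10) completed the 15. For LOC102723728 the DMSO libraries held 20.7 to 37.5 CPM, below the 58.1 to 142 CPM of the other 33 libraries, and TRAP-1-NegP minus TRAP-1-NegB was 0.71 ± 0.15. For LOC101928589 that difference was 0.37 ± 0.58 (adjusted p = 0.72), and in a fit of only the compared groups the rise was 2.69 with an adjusted p of 0.22.

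HAS2, which synthesises the matrix polysaccharide hyaluronan, fell most among the 15 largest falls. It had 4.66, 3.27 and 4.26 CPM in the TRAP-1-NegP libraries, against 54, 51.3 and 53.5 CPM in the DMSO libraries, a change of -3.70 ± 0.26 (adjusted p = 5.4e-12). GIMAP6, a GTPase of the immunity-associated family (chromosome 7, 150625375 to 150632648), had 12.4, 12.8 and 11.9 CPM in the TRAP-1-NegP libraries, against 48.4, 43.8 and 42.4 CPM in the DMSO libraries, a change of -1.86 ± 0.13 (adjusted p = 1.5e-17). No DMSO library came near the TRAP-1-NegP libraries for either gene. TRIM32, an E3 ubiquitin ligase, had 9.49, 7.19 and 8.84 CPM in the TRAP-1-NegP libraries, against 27.2, 26.9 and 32.3 CPM in the DMSO libraries, a change of -1.76 ± 0.14. JRK, a DNA-binding protein derived from a transposase, had 6.45, 9.37 and 6.62 CPM in the TRAP-1-NegP libraries, against 27.8, 27 and 23.4 CPM in the DMSO libraries, a change of -1.81 ± 0.17. ALKBH4, a dioxygenase of the AlkB family, had 4.06, 2.31 and 2.93 CPM in the TRAP-1-NegP libraries, against 12.9, 16.2 and 16.5 CPM in the DMSO libraries, a change of -2.29 ± 0.30. Each of these 3 was also lower under TRAP-1-NegP than under TRAP-1-NegB, by -1.65 ± 0.14, -1.50 ± 0.17 and -1.92 ± 0.30 in that order.

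The remaining large falls began from DMSO levels of 8.46 to 23.3 CPM. They were HCAR1, the lactate receptor (-2.12), DOK7, an adaptor of the kinase MuSK (-1.999), PRICKLE1, a planar polarity protein (-1.88), and EN1, a homeobox factor (-1.68). BCL9, a Wnt co-activator (-1.60), ZNF772, a zinc finger gene (-1.80), and FAM109B (-1.64) also fell. TMED8 (-1.81), FAM63B (-1.61) and NCR3LG1, a ligand of the receptor NKp30 (-1.70), completed the list. These last 3 were the falls with the smallest differences from TRAP-1-NegB among the 15, at -1.04 ± 0.26, -0.96 ± 0.26 and -0.85 ± 0.29. For TMED8 all 3 DMSO libraries lay above the 1.65 to 9.14 CPM of the other 33 libraries.

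**Figure D2:**
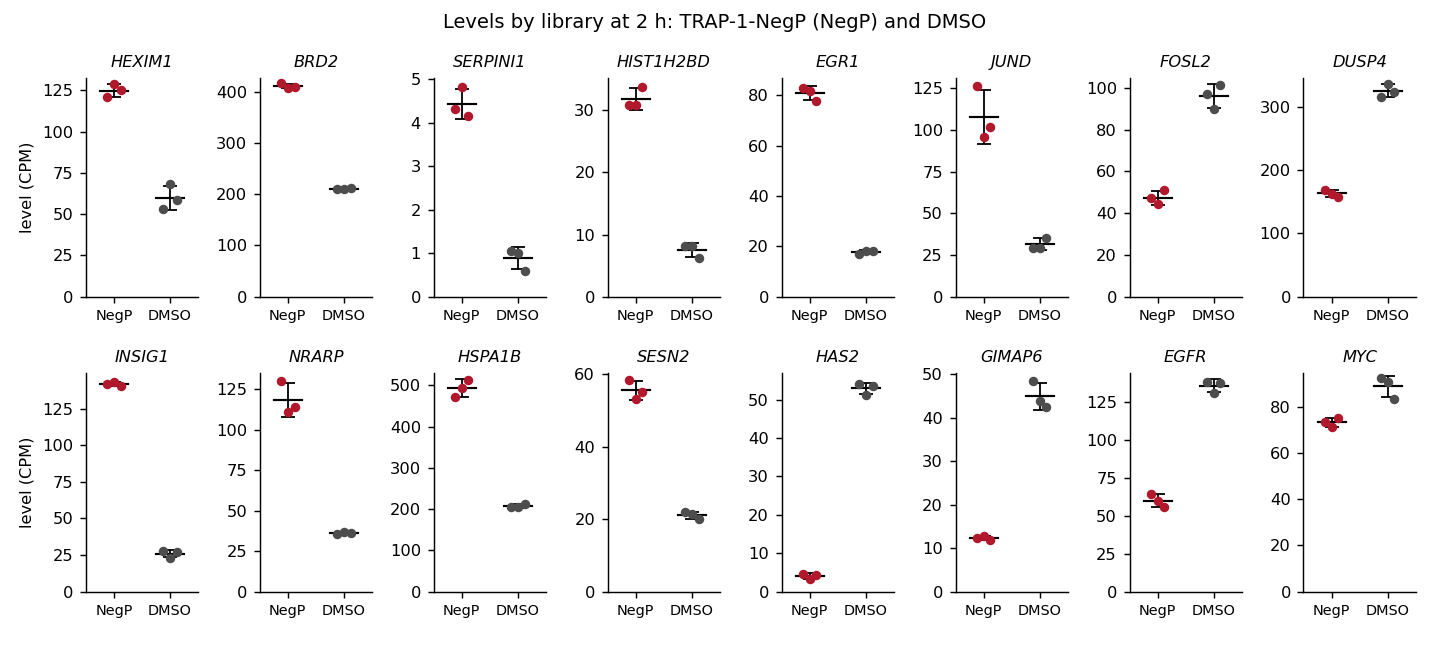
Level in CPM of 16 genes in each TRAP-1-NegP library and each DMSO library of 2 h, with points for libraries and bars for the mean ± SD (n = 3 each). In each panel the TRAP-1-NegP points lie on the left, and HAS2 lies near 4.06 CPM under TRAP-1-NegP and near 53 CPM under DMSO.

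Of the BET proteins themselves, BRD2 rose. BRD2 had 418, 408 and 411 CPM in the TRAP-1-NegP libraries, against 211, 211 and 213 CPM in the DMSO libraries, a rise of 0.96 ± 0.048 (adjusted p = 9.1e-23), with libraries of a group within a few percent of each other. HEXIM1, the inhibitor of P-TEFb, had 121, 129 and 125 CPM in the TRAP-1-NegP libraries, against 53.3, 67.9 and 58.3 CPM in the DMSO libraries, a rise of 1.06 ± 0.082 (adjusted p = 1.5e-15). MEPCE, which caps 7SK RNA, rose by 0.63 ± 0.067, and POLR2A, the largest subunit of RNA polymerase II, by 0.52 ± 0.060. The kinases of the elongating polymerase moved the other way, with changes of -0.68 ± 0.096 for CDK12 and -0.52 ± 0.11 for CDK13. The elongation factors EAF1 (-0.56) and AFF1 (-0.60) also fell. In DMSO libraries alone, 4 h minus 2 h was -0.43 for CDK12, -0.28 for CDK13, -0.39 for EAF1 and -0.57 for AFF1. It was 0.30 for MEPCE, 0.01 for POLR2A, -0.10 for BRD2 and 0.05 for HEXIM1. Of the 26 tested members of the list of BET proteins, P-TEFb and 7SK factors, 8 rose, 6 fell and 12 were not called, with a median of 0.09. Against TRAP-1-NegB, 6 were higher and 4 lower, with a median of -0.07. Counts of this list and those below stand beside 16.4% of all tested genes called higher and 13.9% lower against DMSO. Against TRAP-1-NegB the shares of all tested genes were 15% and 10.6%. Shares also varied with level, and 40.3% rose and 13.4% fell in the top quintile of DMSO level in TPM.

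The genes known to be induced by BET inhibitors rose as a list. Of 17 tested, 16 rose and 0 fell, against 16.4% and 13.9% of all tested genes, and their median was 1.07 beside 0.01 for all genes. SERPINI1, a secreted serine protease inhibitor, had 4.30, 4.81 and 4.16 CPM in the TRAP-1-NegP libraries, against 1.04, 1.01 and 0.596 CPM in the DMSO libraries, a rise of 2.32 ± 0.34. SAT1, the acetyltransferase that starts polyamine breakdown, had 112, 106 and 99.1 CPM in the TRAP-1-NegP libraries, against 45.1, 53.4 and 48.3 CPM in the DMSO libraries, a rise of 1.11 ± 0.071. TXNIP, the thioredoxin inhibitor, had 253, 240.0 and 237 CPM in the TRAP-1-NegP libraries, against 119.7, 116 and 123 CPM in the DMSO libraries, a rise of 1.03 ± 0.058. None of these 3 had overlapping groups. HIST1H2BK, an H2B histone gene, had 189, 204 and 194 CPM in the TRAP-1-NegP libraries, against 92.8, 95.8 and 88.7 CPM in the DMSO libraries, a rise of 1.08 ± 0.058. The libraries were polyA-selected, so for histone genes they report polyadenylated transcripts only. HIST2H2AA3 was the member not called, with 0, 0 and 0 CPM in the TRAP-1-NegP libraries, against 17.9, 4.24 and 0 CPM in the DMSO libraries. It has a near-identical copy, so its estimated counts are uncertain, and the fold between the group means, with 3 counts over the group set for the TRAP-1-NegP side, was at least 132-fold lower; DESeq2 called it lower, and 1 member of the list was called lower without the count filter. Set at that bound, the list's median stayed at 1.07. Against TRAP-1-NegB, 16 of the 17 were higher and 0 lower, with a median of 0.98. The list was drawn up with earlier results of these libraries known, and its count is not independent evidence of its direction.

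Immediate early genes split into a larger group that rose and a smaller one that fell. Of 27 tested, 16 rose and 3 fell, beside 16.4% and 13.9% of all tested genes, with a median of 0.84. Against TRAP-1-NegB 14 were higher and 5 lower with a median of 0.83. JUN, a core subunit of the AP-1 factor, had 185, 181 and 178 CPM in the TRAP-1-NegP libraries, against 92.5, 77.4 and 86.6 CPM in the DMSO libraries, a rise of 1.08 ± 0.076. IER2, a short-lived nuclear protein, had 207, 207 and 210.0 CPM in the TRAP-1-NegP libraries, against 103, 86 and 93.1 CPM in the DMSO libraries, a rise of 1.14 ± 0.078. CYR61, a matricellular protein related to CTGF, had 141, 141 and 139 CPM in the TRAP-1-NegP libraries, against 64.8, 60.3 and 62.9 CPM in the DMSO libraries, a rise of 1.16 ± 0.069. For all 3, each TRAP-1-NegP library lay well above each DMSO library. FOS and JUND, AP-1 subunits chosen here after their values were seen, rose by 1.41 ± 0.10 and 1.78 ± 0.14, with means of 52 against 19.6 CPM and 108 against 31.4 CPM for TRAP-1-NegP and then DMSO. FOSL2, another AP-1 subunit, went down, with 47.1, 44.2 and 50.9 CPM in the TRAP-1-NegP libraries, against 97.2, 89.9 and 101 CPM in the DMSO libraries, a change of -1.02 ± 0.081 (adjusted p = 2.7e-15). FOSL1, its close relative, rose by 0.28 ± 0.062. ZFP36L1, which destabilises AU-rich messages, changed by -0.55 ± 0.067, a fall. MYC had 73.6, 71.3 and 75.4 CPM in the TRAP-1-NegP libraries, against 92.6, 91 and 83.8 CPM in the DMSO libraries, a small fall of -0.28 ± 0.076 (adjusted p = 0.0032). Against TRAP-1-NegB, MYC differed by -0.20 ± 0.076 (adjusted p = 0.047, 95% interval -0.35 to -0.05).

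Feedback regulators of MAP kinase signalling also moved both ways. DUSP4, a phosphatase of ERK, had 169, 163 and 157 CPM in the TRAP-1-NegP libraries, against 317, 337 and 325 CPM in the DMSO libraries, a change of -0.999 ± 0.058 (adjusted p = 2.3e-20). PHLDA1, an early response gene, had 208, 208 and 220.2 CPM in the TRAP-1-NegP libraries, against 371, 390.2 and 376 CPM in the DMSO libraries, a change of -0.84 ± 0.052. SPRY1, a Sprouty inhibitor of receptor kinase signalling, had 2.03, 2.18 and 1.56 CPM in the TRAP-1-NegP libraries, against 6.95, 7.06 and 7.01 CPM in the DMSO libraries, a change of -1.87 ± 0.29. All 3 were lower in each TRAP-1-NegP library than in any DMSO library. DUSP10, a phosphatase of p38 and JNK, changed by -0.72 ± 0.11, a fall for which the difference from TRAP-1-NegB was -0.25 ± 0.11 (adjusted p = 0.11). ERRFI1, an EGFR inhibitor (0.68), DUSP5 (0.63) and DUSP1 (0.83) rose. Of 17 tested members 4 rose and 7 fell, with a median of -0.29, and against TRAP-1-NegB 5 were higher and 6 lower.

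Krüppel-like factors other than KLF2 and KLF4 were mostly lower or not called. KLF4, a differentiation factor of epithelia, rose by 0.75 ± 0.10, and KLF2 is given above. KLF5, a factor of epithelial growth, had 187, 182 and 174 CPM in the TRAP-1-NegP libraries, against 261, 249.9 and 262 CPM in the DMSO libraries, a change of -0.51 ± 0.071. KLF7 (-1.21), KLF13 (-0.77) and KLF3 (-0.76) also fell. Of 13 tested, 2 rose and 6 fell, with a median of -0.51. Against TRAP-1-NegB, 1 was higher and 6 were lower. KLF4 differed from its level under TRAP-1-NegB by 0.24 ± 0.10 (adjusted p = 0.080).

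**Figure D3:**
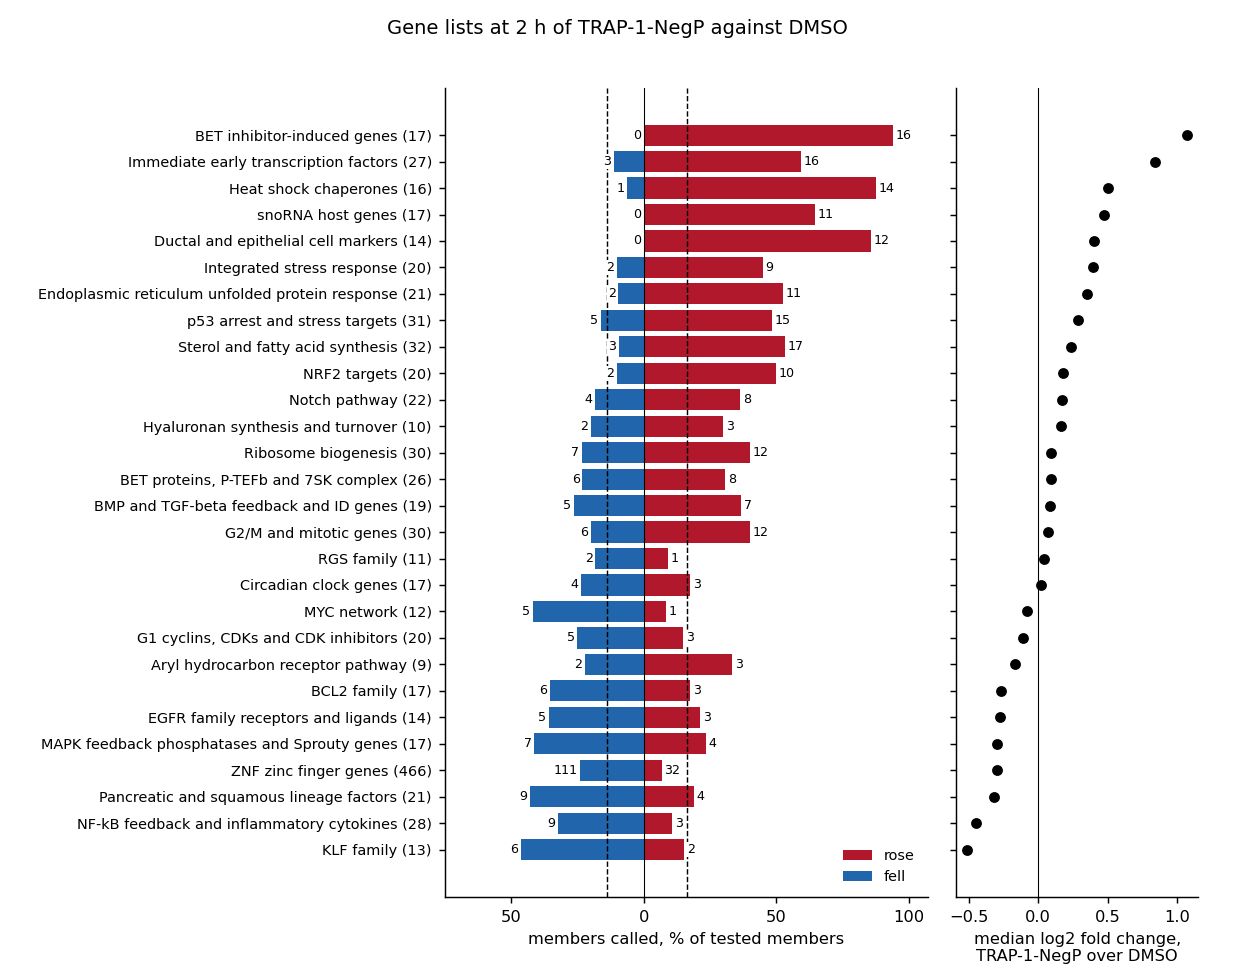
Left, percent of tested members that rose (bars to the right) and fell (bars to the left) in TRAP-1-NegP against DMSO at 2 h, for lists with at least 9 tested members, with dashed lines at the 16.4% and 13.9% of all tested genes. Right, the median log2 fold change of each list, from 1.07 for BET inhibitor-induced genes to -0.51 for the KLF family.

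Among BMP and TGF-beta genes, the inhibitors VASN and BAMBI were joined by ID genes. ID3, an inhibitor of basic helix-loop-helix factors and a known BMP target, had 22.5, 24.8 and 20.6 CPM in the TRAP-1-NegP libraries, against 8.75, 8.53 and 7.24 CPM in the DMSO libraries, a rise of 1.46 ± 0.15. ID1, of the same family, rose by 0.45 ± 0.086. FST, the secreted activin antagonist follistatin, had 415, 403 and 409.5 CPM in the TRAP-1-NegP libraries, against 540.1, 511 and 507 CPM in the DMSO libraries, a change of -0.34 ± 0.056. TGIF2, a TGF-beta corepressor (-0.58), fell as well. BMP4 averaged 0.985 CPM under TRAP-1-NegP and 2.97 CPM under DMSO and fell by 1.59 on the log2 scale, a call lost without DMSO replicate 3 (-1.25, adjusted p = 0.07). Of 19 tested, 7 rose and 5 fell, with a median of 0.09, and against TRAP-1-NegB 7 were higher and 6 lower.

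In the Notch pathway a feedback target and the ligand DLL4 rose while the receptor NOTCH2 and the ligand JAG1 fell. NRARP, a Notch-induced inhibitor of Notch signalling, had 130.3, 111 and 114 CPM in the TRAP-1-NegP libraries, against 35.8, 37 and 35.8 CPM in the DMSO libraries, a rise of 1.71 ± 0.091 (adjusted p = 8.0e-22). LFNG, which glycosylates Notch receptors, rose by 0.67 ± 0.083, and HES2, a repressor of the HES family, by 0.74 ± 0.11. DLL4, a Notch ligand, had 4.42, 3.40 and 2.93 CPM in the TRAP-1-NegP libraries, against 0.135, 0.126 and 0.183 CPM in the DMSO libraries, so its fitted rise of 4.54 ± 0.74 rests on few DMSO counts. The receptor NOTCH2 had 44.7, 51.3 and 44.9 CPM in the TRAP-1-NegP libraries, against 90.8, 87.5 and 82.9 CPM in the DMSO libraries, a change of -0.89 ± 0.085. The ligand JAG1 (-0.40), the co-activator MAML1 (-0.65) and the repressor HEY1 (-1.46) fell too. Among these falls, 4 h minus 2 h in DMSO libraries alone was -0.66 for NOTCH2, -0.29 for JAG1, -0.29 for MAML1 and 0.50 for HEY1. Of 22 tested, 8 rose and 4 fell, with a median of 0.17, and the same numbers, 8 higher and 4 lower, were called against TRAP-1-NegB.

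EGFR, the receptor of epidermal growth factor, fell, while 2 of its ligands rose and another, TGFA, was called lower. EGFR (chromosome 7, 55019021 to 55211628) had 64.6, 59.7 and 55.7 CPM in the TRAP-1-NegP libraries, against 139, 131 and 138 CPM in the DMSO libraries, a change of -1.18 ± 0.083 (adjusted p = 3.6e-17). EGFR differed from its level under TRAP-1-NegB by -0.74 ± 0.083, and in DMSO libraries alone 4 h minus 2 h was -0.86. HBEGF had 147, 150.2 and 148 CPM in the TRAP-1-NegP libraries, against 86.9, 83.2 and 84.8 CPM in the DMSO libraries, a rise of 0.80 ± 0.063. AREG, amphiregulin, rose by 0.49 ± 0.075 against DMSO but was lower than under TRAP-1-NegB by -0.34 ± 0.074. For TGFA, the correction for GC content and length gave -0.12 (adjusted p = 0.13), not called. Its 4 h minus 2 h value in DMSO libraries alone was -0.43. LRIG3, of a family that modulates growth factor receptors, changed by -0.99 ± 0.13, a fall. Of 14 tested members of the EGFR family list, 3 rose and 5 fell, with a median of -0.28, and against TRAP-1-NegB 2 were higher and 5 lower.

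Sterol synthesis genes rose at several steps. IDI1, an isomerase of the isoprenoid pathway, had 93, 88.3 and 92.8 CPM in the TRAP-1-NegP libraries, against 34.6, 33.9 and 29.7 CPM in the DMSO libraries, a rise of 1.48 ± 0.079 (adjusted p = 9.5e-22). HMGCS1, which makes HMG-CoA, had 115, 110.5 and 105 CPM in the TRAP-1-NegP libraries, against 75.2, 77.1 and 76.9 CPM in the DMSO libraries, a rise of 0.53 ± 0.080. SREBF2, the transcription factor gene of this pathway, changed by -0.26 ± 0.083, a fall. Of 32 tested genes of sterol and fatty acid synthesis, 17 rose and 3 fell, with a median of 0.24. The falls were SREBF2, INSIG2 (-0.45) and ABCA1 (-0.46), and 1 of them was called in each fit without 1 library other than DMSO replicate 3 and with the length-scaled counts. After a correction for GC content and length ABCA1 stood at -0.24 (adjusted p = 0.33). Against TRAP-1-NegB, 14 were higher and 2 lower, with a median of 0.22. INSIG1 was 1.70 ± 0.074 above its level under TRAP-1-NegB, and HMGCS1 differed from that level by 0.16 ± 0.079 (adjusted p = 0.15).

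Chaperone genes of the cytosol and the endoplasmic reticulum were higher. HSPA1B, an inducible HSP70 gene, had 471, 494 and 514 CPM in the TRAP-1-NegP libraries, against 206, 204 and 212 CPM in the DMSO libraries, a rise of 1.25 ± 0.055 (adjusted p = 3.4e-25). It was 1.12 ± 0.054 above its level under TRAP-1-NegB, and in DMSO libraries alone 4 h minus 2 h was 0.81. Its near-identical copy HSPA1A shares reads with it, so the split between the copies is uncertain. DNAJB1, an HSP40 co-chaperone, had 306, 309.7 and 304 CPM in the TRAP-1-NegP libraries, against 174, 176 and 187 CPM in the DMSO libraries, a rise of 0.78 ± 0.052. BAG3, an HSP70 cofactor, rose by 0.75 ± 0.051, and HSP90AA1, an HSP90 gene, by 0.55 ± 0.047. Of 16 tested heat shock genes 14 rose, with HSPA4L (-0.37) as the 1 fall, and their median was 0.51. That fall was lost without DMSO replicate 3 or without TRAP-1-NegP replicate 2 or 3, which left 0, and with a correction for GC content and length (-0.11, adjusted p = 0.54). Against TRAP-1-NegB, 12 were higher and 0 lower, with a median of 0.32.

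HSPA5, the endoplasmic reticulum chaperone BiP, had 1188, 1153 and 1174 CPM in the TRAP-1-NegP libraries, against 628, 640.4 and 644 CPM in the DMSO libraries, a rise of 0.88 ± 0.042 (adjusted p = 1.3e-23). HSP90B1, its HSP90 partner in that compartment, rose by 0.82 ± 0.055, CALR, calreticulin, by 0.51 ± 0.049, and PDIA4, a disulfide isomerase, by 0.47 ± 0.047. XBP1, a transcription factor of the unfolded protein response, had 40.2, 39.6 and 40.5 CPM in the TRAP-1-NegP libraries, against 58.9, 61.8 and 62.3 CPM in the DMSO libraries, a change of -0.60 ± 0.092, and CREB3L2 also fell (-0.60). The chaperones of this response were thus higher while 2 of its factors were lower. In DMSO libraries alone, 4 h minus 2 h was -0.51 for CREB3L2 and 0.04 for XBP1. It was 0.37 for HSPA5, 0.11 for HSP90B1, 0.37 for CALR and 0.22 for PDIA4. Of 21 tested members 11 rose and 2 fell, with a median of 0.35, and against TRAP-1-NegB 12 were higher and 1 lower. XBP1 differed from its level under TRAP-1-NegB by -0.14 ± 0.092 (adjusted p = 0.29).

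In the integrated stress response, PPP1R15A, the phosphatase subunit that reverses it, had 161, 159 and 159.5 CPM in the TRAP-1-NegP libraries, against 78.3, 77.8 and 79.2 CPM in the DMSO libraries, a rise of 1.03 ± 0.073. SESN2, a stress-induced inhibitor of mTORC1 signalling, had 58.4, 53.2 and 55 CPM in the TRAP-1-NegP libraries, against 21.9, 21.3 and 20.03 CPM in the DMSO libraries, a rise of 1.40 ± 0.100. DDIT3, the factor CHOP, had 24.5, 28.7 and 22.4 CPM in the TRAP-1-NegP libraries, against 12, 12.3 and 11.2 CPM in the DMSO libraries, a rise of 1.09 ± 0.15, and ATF4, the central factor of the response, rose by 0.40 ± 0.052. TRIB3, a pseudokinase and known target of ATF4 and CHOP, went the other way, with 17.1, 12.3 and 13.1 CPM in the TRAP-1-NegP libraries, against 34, 31.3 and 29.3 CPM in the DMSO libraries, a change of -1.16 ± 0.16. SLC7A11, the cystine transporter, changed by -0.59 ± 0.11, a fall. For these falls, 4 h minus 2 h in DMSO libraries alone was -0.10 for TRIB3 and -0.56 for SLC7A11. Of 20 tested, 9 rose and 2 fell, with a median of 0.40, and against TRAP-1-NegB 10 were higher and 4 lower. Targets of NRF2, the oxidative stress factor, had 10 rises and 2 falls among 20, with a median of 0.18, and against TRAP-1-NegB 10 were higher and 3 lower. They included FTH1, ferritin heavy chain (0.64), and the pentose phosphate enzymes PGD (0.56) and TALDO1 (0.48). KEAP1, the inhibitor of NRF2, fell (-0.37). Among these genes, 4 h minus 2 h in DMSO libraries alone was 0.45 for FTH1, 0.29 for PGD, 0.36 for TALDO1 and 0.37 for KEAP1.

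Inflammatory transcripts were mostly lower or not called. IL1B, the cytokine interleukin-1 beta, had 24.5, 26.6 and 19.5 CPM in the TRAP-1-NegP libraries, against 46.2, 47.9 and 47.9 CPM in the DMSO libraries, a change of -1.01 ± 0.10 (adjusted p = 1.3e-11). IL1A, its sister cytokine, had 51.8, 51 and 47.8 CPM in the TRAP-1-NegP libraries, against 71.8, 71.8 and 78.8 CPM in the DMSO libraries, a change of -0.56 ± 0.097. LIF, a cytokine of the IL-6 family, had 6.75, 4.11 and 4.49 CPM in the TRAP-1-NegP libraries, against 12.3, 10.4 and 12.1 CPM in the DMSO libraries, a change of -1.18 ± 0.22. The differences from TRAP-1-NegB were larger still, at -2.07 ± 0.10 for IL1B, -1.33 ± 0.097 for IL1A and -2.28 ± 0.22 for LIF. TRAP-1-NegB minus DMSO itself called 4 members of the NF-kB and cytokine list higher and 0 lower. These larger differences therefore do not measure TRAP-1-NegP alone. TNFAIP3, the feedback inhibitor A20, changed by -0.67 ± 0.11, a fall. Within DMSO libraries, 4 h minus 2 h was -0.29 for IL1B, -0.44 for IL1A, -0.02 for LIF and -0.39 for TNFAIP3. Of 28 tested NF-kB and cytokine genes 3 rose and 9 fell, with a median of -0.45, and against TRAP-1-NegB the numbers were 3 higher and 9 lower. The rises, NFKBIE (0.55), NFKB2 (0.32) and NFKBIB (0.25), were all lost without TRAP-1-NegP replicate 3, and 1 remained without DMSO replicate 1 or 3. With a correction for GC content and length, NFKB2 stood at 0.21 (adjusted p = 0.055) and NFKBIB at 0.098 (adjusted p = 0.45), neither called, while 5 members of the list rose in a fit of only the groups compared. CSF2 was at 0 in all TRAP-1-NegP libraries and averaged 0.501 CPM in DMSO libraries, at least 8.93-fold lower at 3 counts over the group, and was not called.

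Targets of p53 moved in both directions. CDKN1A, which encodes the cell cycle inhibitor p21, had 285, 298 and 296 CPM in the TRAP-1-NegP libraries, against 163, 169 and 153 CPM in the DMSO libraries, a rise of 0.86 ± 0.049. GADD45B, a stress sensor, had 45.1, 47.1 and 50.5 CPM in the TRAP-1-NegP libraries, against 18.5, 16.3 and 13.7 CPM in the DMSO libraries, a rise of 1.56 ± 0.12. PLK3, a stress-responsive kinase, had 102, 97 and 102 CPM in the TRAP-1-NegP libraries, against 46, 43.8 and 40.4 CPM in the DMSO libraries, a rise of 1.21 ± 0.082. AEN, a nuclease induced by p53, went down, with 30.3, 33.6 and 28.7 CPM in the TRAP-1-NegP libraries, against 76.9, 71.4 and 71 CPM in the DMSO libraries, a change of -1.25 ± 0.10 (adjusted p = 6.0e-15). MDM2, the ubiquitin ligase of p53, had 30.04, 27.8 and 32.5 CPM in the TRAP-1-NegP libraries, against 48.7, 46.1 and 47.2 CPM in the DMSO libraries, a change of -0.65 ± 0.12. The death receptor TNFRSF10A (-0.71) and TRIAP1 (-0.51) also fell. Of 31 tested targets of arrest and stress, 15 rose and 5 fell, with a median of 0.29, and against TRAP-1-NegB 13 were higher and 3 lower. TRIAP1 differed from its level under TRAP-1-NegB by -0.18 ± 0.11 (adjusted p = 0.27).

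In the BCL2 family, members known to favour cell death differed in direction. BCL2L11, the BH3-only protein BIM, had 29.98, 25.5 and 31.3 CPM in the TRAP-1-NegP libraries, against 11.5, 10.7 and 11.5 CPM in the DMSO libraries, a rise of 1.37 ± 0.12 (adjusted p = 1.8e-13). PMAIP1, the BH3-only protein NOXA, had 78.9, 76.4 and 69.7 CPM in the TRAP-1-NegP libraries, against 32.2, 39 and 33.4 CPM in the DMSO libraries, a rise of 1.10 ± 0.11. The groups did not overlap for either gene. BAX rose by 0.38 ± 0.11, while the related pore former BAK1 had 67.5, 70.8 and 71.3 CPM in the TRAP-1-NegP libraries, against 103, 102 and 108 CPM in the DMSO libraries, a change of -0.58 ± 0.083. BAD changed by -0.56 ± 0.098 and BID by -0.34 ± 0.098, both falls, and BCL2L1, which encodes the survival protein BCL-XL, by -0.23 ± 0.064. Of 17, 3 rose and 6 fell, with a median of -0.26, whereas against TRAP-1-NegB 6 were higher and 2 lower, with a median of 0.17. BAD was higher than under TRAP-1-NegB, by 0.33 ± 0.100, and so its direction depended on the group it was set against.

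Around MYC, the partner genes MGA, MLX, MNT and MLXIP fell. MGA, a repressor that pairs with MAX, had 15.5, 19.1 and 16.6 CPM in the TRAP-1-NegP libraries, against 41.4, 43.4 and 41.9 CPM in the DMSO libraries, a change of -1.31 ± 0.13 (adjusted p = 8.0e-12). MNT, another MAX-binding repressor, changed by -0.86 ± 0.16, and MLX and MLXIP, of the glucose-sensing arm of the network, by -0.61 ± 0.094 and -0.35 ± 0.085. With MYC itself these were the 5 falls among 12 tested, and MYCL (0.71) was the 1 rise, which was lost without DMSO replicate 2 or 3 or TRAP-1-NegP replicate 1 or 2 and left 0. Against TRAP-1-NegB, 2 members were higher and 4 lower. Ribosome biogenesis genes had 12 rises and 7 falls among 30, with a median of 0.09, and 11 falls in only the groups compared. NCL, the abundant nucleolar protein nucleolin, had 1472, 1478 and 1522 CPM in the TRAP-1-NegP libraries, against 877, 912 and 888 CPM in the DMSO libraries, a rise of 0.74 ± 0.046. NOP58, of the box C/D particles that guide methylation of ribosomal RNA, had 157, 155 and 166 CPM in the TRAP-1-NegP libraries, against 76.6, 76.1 and 77.7 CPM in the DMSO libraries, a rise of 1.05 ± 0.067, and its partner NOP56 rose by 0.56 ± 0.044. The RNA polymerase I subunits POLR1B and POLR1A fell, by 0.93 ± 0.11 and 0.60 ± 0.097 on the log2 scale. Against TRAP-1-NegB the list had 8 higher and 6 lower members, with NOP58 at 0.25 ± 0.066.

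Noncoding host genes of small nucleolar RNAs rose with no fall. Of 17 tested, 11 rose and 0 fell, with a median of 0.47, and against TRAP-1-NegB 10 were higher and 0 lower, with a median of 0.45. SNHG1 had 137, 143 and 142 CPM in the TRAP-1-NegP libraries, against 61.5, 63.9 and 59.6 CPM in the DMSO libraries, a rise of 1.19 ± 0.067 (adjusted p = 5.7e-21). SNHG12 had 33.2, 32.2 and 33.2 CPM in the TRAP-1-NegP libraries, against 12.9, 12.7 and 15.9 CPM in the DMSO libraries, a rise of 1.25 ± 0.14. SNHG3 rose by 0.88 ± 0.10 and SNHG8 by 0.88 ± 0.12. The spliced transcripts of such genes are known to be degraded in the course of translation, and the files do not measure RNA stability.

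The cell cycle genes named here that were called changed by less than 2-fold. PTTG1, securin, had 94.6, 97.3 and 109 CPM in the TRAP-1-NegP libraries, against 62.2, 63.1 and 56.8 CPM in the DMSO libraries, a rise of 0.73 ± 0.071, and CDK1, the mitotic kinase, rose by 0.41 ± 0.079. AURKA, a spindle kinase, had 74.5, 75.5 and 74.4 CPM in the TRAP-1-NegP libraries, against 113, 104 and 105 CPM in the DMSO libraries, a change of -0.52 ± 0.065, and CENPA, the centromeric histone (-0.77), and INCENP (-0.55) fell. In DMSO libraries alone, 4 h minus 2 h was 0.70 for PTTG1, 0.10 for CDK1, 0.39 for AURKA, 0.61 for CENPA and 0.08 for INCENP. Of 30 G2/M genes 12 rose and 6 fell, with a median of 0.07, but only 7 rose without DMSO replicate 1, and against TRAP-1-NegB 3 were higher and 12 lower. TRAP-1-NegB minus DMSO itself called 10 of the 30 G2/M genes higher and 1 lower. Against TRAP-1-NegB, CDK1 differed by 0.08 ± 0.078 (adjusted p = 0.55). Of 20 G1 genes 3 rose and 5 fell, beside 16.4% and 13.9% of all tested genes, with a median of -0.11. The G1 falls were 3 without DMSO replicate 3 or without TRAP-1-NegP replicate 3. They were 8 without both libraries that stood apart from their groups, MS78 at 2 h replicate 1 and TRAP1 at 4 h replicate 1. Against TRAP-1-NegB, 5 G1 genes were higher and 4 lower. E2F2, an activating E2F, changed by -0.91 ± 0.19, RBL2, a pocket protein, by -0.69 ± 0.12, and CCNE2, cyclin E2, by 0.51 ± 0.12. CCND2, a D cyclin, was at 0 in all TRAP-1-NegP libraries and averaged 0.301 CPM under DMSO, at least 5.36-fold lower at 3 counts over the group, and was not called (adjusted p = 0.058).

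Smaller families gave single strong members. Their counts of called members are small and stand beside the 16.4% of all tested genes called higher and 13.9% called lower. In the hyaluronan list, apart from HAS2, UAP1, which makes a precursor sugar (0.59), and the receptor CD44 (0.21) rose and the hyaluronidase HYAL2 fell (-0.36), giving 3 rises and 2 falls among 10, and 3 higher and 2 lower members against TRAP-1-NegB. RGS4, an inhibitor of G-protein signalling, had 12.7, 15.1 and 15.6 CPM in the TRAP-1-NegP libraries, against 39.4, 45.2 and 44.6 CPM in the DMSO libraries, a change of -1.58 ± 0.15 (adjusted p = 1.7e-12). RGS2, of the same family, had 78.5, 86.3 and 77.3 CPM in the TRAP-1-NegP libraries, against 52.1, 53.9 and 54.8 CPM in the DMSO libraries, a rise of 0.59 ± 0.078, and the list held 1 rise and 2 falls among 11, and 2 higher and 1 lower members against TRAP-1-NegB. Among clock genes, PER1 had 35.6, 43.4 and 42.7 CPM in the TRAP-1-NegP libraries, against 16.2, 16.2 and 15.6 CPM in the DMSO libraries, a rise of 1.34 ± 0.10. PER2, its paralog, had 12.7, 18.7 and 19.5 CPM in the TRAP-1-NegP libraries, against 30.8, 33.9 and 38.8 CPM in the DMSO libraries, a change of -1.02 ± 0.12. These paralogs therefore moved in opposite directions, and NFIL3 (0.86) rose while CLOCK (-0.73) and BHLHE40 (-0.51) fell, with 3 rises and 4 falls among 17. Within DMSO libraries, 4 h minus 2 h was 0.25 for PER1, -0.12 for PER2 and 0.11 for NFIL3. It was -0.54 for CLOCK and -0.05 for BHLHE40. The clock list had 5 rises with a correction for GC content and length and in only the groups compared, and 3 higher and 3 lower members against TRAP-1-NegB. CYP1B1, an aryl hydrocarbon receptor target, had 6.99, 9.05 and 6.90 CPM in the TRAP-1-NegP libraries, against 15.3, 13.9 and 17.3 CPM in the DMSO libraries, a change of -1.03 ± 0.17, and TIPARP, another target, rose by 0.48 ± 0.085. That list had 3 rises and 2 falls among 9, with 1 fall in each fit without 1 library other than TRAP-1-NegP replicate 1 and with the GC content and length correction, and against TRAP-1-NegB 1 was higher and 5 were lower. TRAP-1-NegB minus DMSO itself called 5 members of that list higher and 1 lower.

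Lineage factors were lower more often than higher. TP63, the squamous master regulator, had 130.4, 122 and 124 CPM in the TRAP-1-NegP libraries, against 194, 187 and 183 CPM in the DMSO libraries, a change of -0.59 ± 0.074 (adjusted p = 5.5e-09). FOXA2, a pioneer factor of foregut endoderm, had 10.2, 13.4 and 13.1 CPM in the TRAP-1-NegP libraries, against 23.9, 23.7 and 25.6 CPM in the DMSO libraries, a change of -0.997 ± 0.13. EHF, an epithelial ETS factor, had 117, 110.0 and 122 CPM in the TRAP-1-NegP libraries, against 165, 167 and 167 CPM in the DMSO libraries, a change of -0.51 ± 0.075. OVOL1, an epithelial zinc finger factor, and ELF3, an ETS factor, rose, by 0.79 ± 0.11 and 0.45 ± 0.100. Of 21 tested, 4 rose and 9 fell, with a median of -0.32, and 2 rose without DMSO replicate 2 or without the count filter. Against TRAP-1-NegB, 3 lineage factors were higher and 8 lower. The ductal and epithelial marker genes showed 12 rises and 0 falls among 14, with a median of 0.40, and 13 were higher than under TRAP-1-NegB. KRT18, a keratin of simple epithelia, had 2108, 2071 and 2142 CPM in the TRAP-1-NegP libraries, against 1343, 1405 and 1363 CPM in the DMSO libraries, a rise of 0.62 ± 0.052, and the tight junction gene CLDN4 (0.67) and the adhesion gene EPCAM (0.63) rose. Within DMSO libraries, 4 h minus 2 h was 0.39 for KRT18, 0.43 for CLDN4 and -0.16 for EPCAM.

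Zinc finger genes named ZNF fell more often than they rose. Of 466 tested, 32 rose and 111 fell, beside 16.4% and 13.9% of all genes, with a median of -0.30. Without TRAP-1-NegP replicate 2, 21 rose. In all, 30.7% of them were called, beside 30.3% of all tested genes. Shares varied with level, and 11.3% rose and 23.5% fell in the middle quintile of DMSO level in TPM. They varied also with transcript length, as given below. The part of level and length in this list was not tested. ZNF436 had 16.3, 16.2 and 21 CPM in the TRAP-1-NegP libraries, against 37.3, 35.9 and 34.8 CPM in the DMSO libraries, a change of -1.01 ± 0.13. ZNF609 had 19.2, 23.4 and 22.6 CPM in the TRAP-1-NegP libraries, against 40.1, 43.2 and 41.2 CPM in the DMSO libraries, a change of -0.93 ± 0.13, and ZNF384 changed by -0.79 ± 0.11. ZNF296 was an exception, with 28.2, 23 and 25.6 CPM in the TRAP-1-NegP libraries, against 9.97, 10.00 and 8.62 CPM in the DMSO libraries, a rise of 1.43 ± 0.16. Many of these genes encode repressors with KRAB domains, and some have close paralogs, between which estimated counts may be split. Against TRAP-1-NegB, 13 were higher and 101 lower, with a median of -0.32.

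Transcript length and level were associated with direction. Length, GC content and exon number were taken from GENCODE v29 on GRCh38 for 93.5% of tested genes. In the quintile of shortest transcripts, up to 1879 bases, 23.4% of genes rose and 7.23% fell, and in the quintile of longest, from 5648 bases, 6.63% rose and 28.7% fell. The median change was 0.14 in the shortest and -0.18 in the longest quintile. The same order held for TRAP-1-NegP minus TRAP-1-NegB (0.27 and -0.16), minus JQ1 (0.21 and -0.17) and minus TRAP1 (0.11 and -0.08). At 4 h, TRAP-1-NegP minus DMSO stood at 0.05 in the shortest and 2.8e-05 in the longest quintile, and at 2 h JQ1 minus DMSO stood at -0.04 and -0.0014, without that spread. TRAP1 minus DMSO at 2 h stood at 0.05 and -0.095, in the same order as TRAP-1-NegP but with less spread. MS78 minus DMSO at 2 h stood at 1.2e-04 and -0.10, and TRAP-1-NegB minus DMSO at -0.08 and -0.04. Over quintiles of GC content, 13.9% rose and 14.5% fell in the lowest, and 22.5% rose and 9.42% fell in the highest. A correction for GC content and length called 4610 genes, of which 3632 had also been called with the same sign. Of the named genes still called after it, AFF1 (-0.39), CDK13 (-0.30), CLOCK (-0.48), CREB3L2 (-0.40), JAG1 (-0.22), MDM2 (-0.38) and SLC7A11 (-0.35) stood closer to 0 by more than 1.5 times. So did AREG (0.30), BAX (0.25), CDK1 (0.22), FOSL1 (0.15) and RGS2 (0.38), while CD44 (0.38) stood further from 0. Among genes in the top quintile of DMSO level in TPM, 40.3% rose and 13.4% fell, while in the lowest quintile 3.14% rose and 1.10% fell. Rises of at least 2-fold had a median genomic span of 11577 bases, against 30741 for all tested genes, and 25% of them had 1 or 2 exons, against 9.31% of all.

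**Figure D4:**
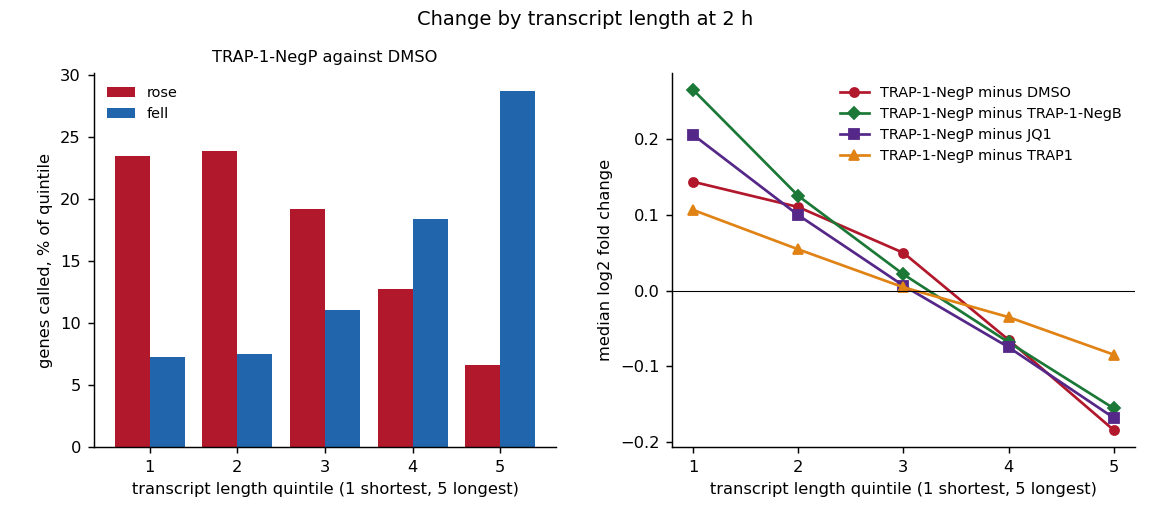
Left, percent of tested genes that rose or fell in TRAP-1-NegP against DMSO at 2 h in each quintile of transcript length, from shortest (1) to longest (5). Right, the median log2 difference per quintile of TRAP-1-NegP minus DMSO, TRAP-1-NegB, JQ1 and TRAP1 at 2 h, each of which is highest in the shortest quintile and lowest in the longest.

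Set against TRAP-1-NegB at the same dose and time, TRAP-1-NegP differed most in FAM46C, TNFSF9, VASN and BAMBI on the higher side and in CYP1 enzymes and HAS2 on the lower side. Differences between the 2 compounds that were called reached 2-fold for 361 genes (2.41%). FAM46C was 3.12 ± 0.29 higher under TRAP-1-NegP, with 16.9 ± 2.3 CPM under TRAP-1-NegP and 1.99 ± 1.1 CPM under TRAP-1-NegB (SD, n = 3 each), and TNFSF9 was 2.40 ± 0.20 higher. VASN (2.31) and BAMBI (2.26) were also among the 5 largest differences upward. The fitted value of HIST2H4A, at 0 in TRAP-1-NegB libraries, depends on near-identical copies and is not given. On the lower side, CYP1B1, which oxidises xenobiotics, averaged 7.65 ± 1.2 CPM under TRAP-1-NegP and 154 ± 3.0 CPM under TRAP-1-NegB, a difference of -4.34 ± 0.17. CYP1A1, of the same enzyme family, averaged 1.33 ± 0.82 CPM under TRAP-1-NegP and 22.6 ± 1.2 CPM under TRAP-1-NegB, a difference of -4.09 ± 0.28, and its DMSO mean of 1.65 CPM gave no call. Thus both enzymes were lower under TRAP-1-NegP than under TRAP-1-NegB, while only CYP1B1 was called against DMSO. TRAP-1-NegB minus DMSO itself called 5 of 9 aryl hydrocarbon receptor pathway genes higher and 1 lower. These differences therefore do not measure TRAP-1-NegP alone. HAS2 (-4.12), ARTN, a growth factor of the GDNF family (-2.41), and LIF (-2.28) completed the 5 largest differences downward.

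Of the compounds set against TRAP-1-NegP here at the same dose and time, TRAP1 gave the fewest called genes. TRAP-1-NegP minus TRAP1 called 120 genes (0.801%), with 41 higher (0.274%) and 79 lower (0.527%), and 15 of them reached 2-fold (0.1%). This count depended on every library, at 61, 73 and 74 without TRAP-1-NegP replicate 1, 2 or 3 and at 74, 79 and 54 without TRAP1 replicate 1, 2 or 3. Other settings called more, with 233 by DESeq2, 243 without the count filter, 463 without both libraries that stood apart and 1112 in only the groups compared. In the last 2 of these, more genes were higher than lower (246 and 217, 662 and 450). The large differences were p53-linked and regulatory genes that were lower under TRAP-1-NegP. CDKN1A averaged 293 ± 7.2 CPM under TRAP-1-NegP and 2046 ± 30 CPM under TRAP1, a difference of -2.80 ± 0.051 (95% interval -2.90 to -2.70). TP53INP1, a stress protein gene, averaged 1.65 CPM under TRAP-1-NegP and 15 CPM under TRAP1 and differed by -3.17 ± 0.33, while against DMSO TRAP-1-NegP gave -0.35 ± 0.35 (adjusted p = 0.51). GDF15, a stress cytokine (-2.21), RGS16, an RGS protein (-1.99), and POU3F1, a POU-domain factor (-1.89), were lower as well. Of 31 listed targets of p53, 13 were lower and 0 higher than under TRAP1, with a median of -0.33.

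On the higher side, INSIG1 averaged 142 ± 1.5 CPM under TRAP-1-NegP and 87.2 ± 7.7 CPM under TRAP1, a difference of 0.70 ± 0.071 (95% interval 0.56 to 0.85). DDX28, an RNA helicase, was 0.63 ± 0.11 higher than under TRAP1. ZNF579 (0.79), KTI12 (0.65) and MAP1S (0.61) completed this side, each with a call that was lost in some alternative fits. HEXIM1 differed between TRAP-1-NegP and TRAP1 by -0.17 ± 0.080 (adjusted p = 0.42, interval -0.33 to -0.01), BRD2 by -0.12 ± 0.047 (interval -0.22 to -0.03) and HAS2 by 0.02 ± 0.30 (interval -0.59 to 0.62). MYC was 0.32 ± 0.077 higher under TRAP-1-NegP than under TRAP1. Among BET inhibitor-induced genes 0 were higher and 0 lower, and among heat shock genes 0 and 0, out of 17 and 16 tested. With only 0.801% of all tested genes called in this comparison, a count of 0 in lists of this size says little about them.

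JQ1 and TRAP-1-NegP differed more often, but by small amounts. TRAP-1-NegP minus JQ1 called 1935 genes (12.9%), with 1088 higher (7.26%) and 847 lower (5.65%), of which 44 reached 2-fold (0.294%). Without JQ1 replicate 1 or 2 or TRAP-1-NegP replicate 1 the total was 1210, 1131 and 1255 in that order, and it was 1239 with the GC content and length correction. In only the groups compared it was 3318, with 1623 higher and 1695 lower. EGR1 averaged 80.8 ± 2.7 CPM under TRAP-1-NegP and 164 ± 8.5 CPM under JQ1, a difference of -1.02 ± 0.10 (95% interval -1.23 to -0.81). MYLIP, an E3 ubiquitin ligase, was lower by -1.02 ± 0.15, and the sterol gene INSIG1 was higher by 0.64 ± 0.071. MYC was higher under TRAP-1-NegP, by 0.47 ± 0.077 (interval 0.32 to 0.63), and EGFR lower, by -0.69 ± 0.083. The differences of HEXIM1, -0.09 ± 0.080 (adjusted p = 0.57, interval -0.25 to 0.08), BRD2, -0.13 ± 0.047 (interval -0.22 to -0.03), and SERPINI1, -0.23 ± 0.30 (interval -0.83 to 0.37), were not called. Of the 5 largest differences per direction, PLD4, a phospholipase D family member (1.34), ZNF579 (1.17), ZNF830 (1.13), TMEM186 (1.10) and LDLRAD2 (1.39) were higher. C4orf29 (-1.07), CCRN4L, a clock-linked deadenylase relative (-1.03), and LOC100271836 (-1.02) were lower, beside MYLIP and EGR1. Immediate early genes had 3 higher and 7 lower members with a median of -0.27, sterol genes 9 and 4, ribosome biogenesis genes 9 and 2, and snoRNA host genes 7 and 1.

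**Figure D5:**
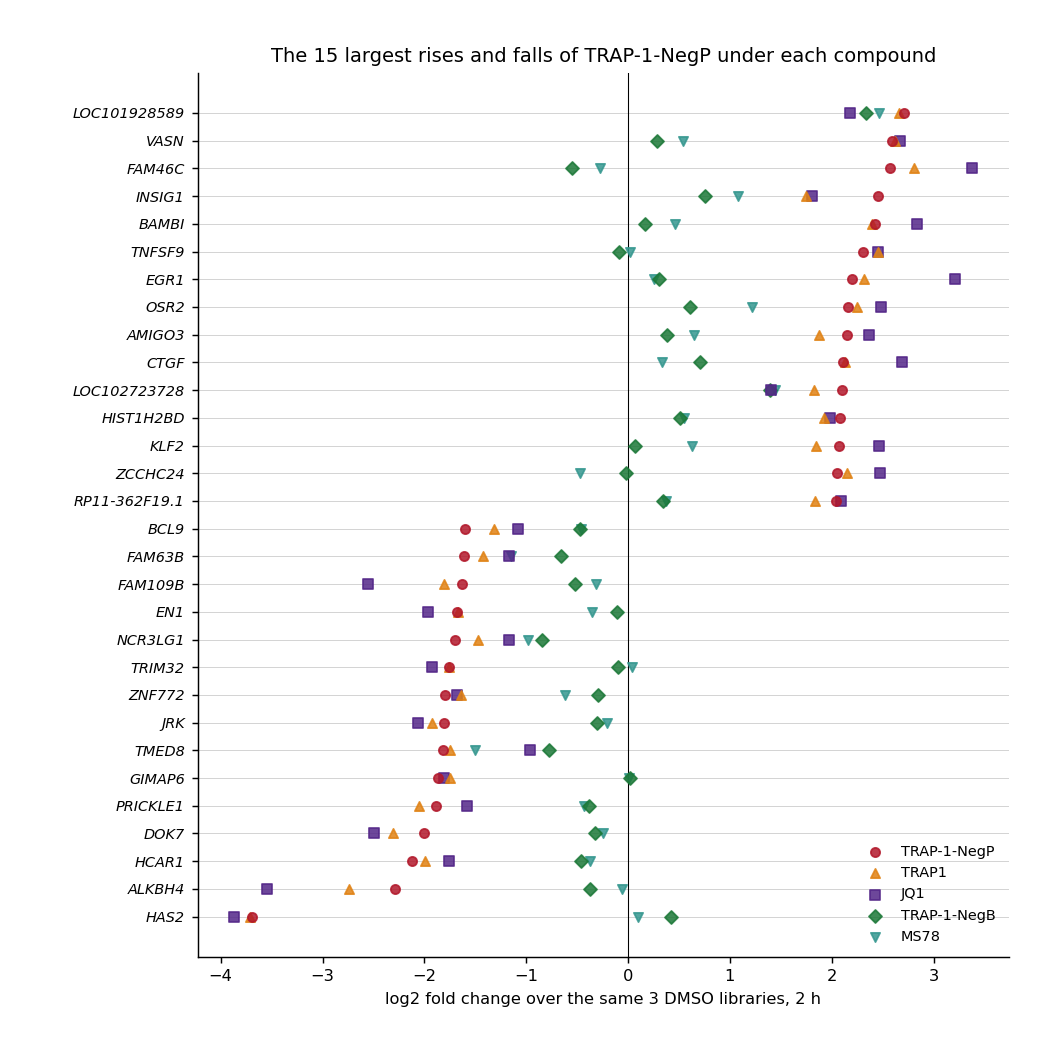
Log2 fold change over DMSO at 2 h of the 15 largest rises and 15 largest falls of TRAP-1-NegP, shown for TRAP-1-NegP first and then for TRAP1, JQ1, TRAP-1-NegB and MS78, all of which share the same DMSO libraries. HAS2 stands at -3.70 for TRAP-1-NegP, -3.71 for TRAP1, -3.86 for JQ1 and 0.42 for TRAP-1-NegB.

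Side by side over the same DMSO libraries, which ties these values to each other, FAM46C changed by 2.57 with TRAP-1-NegP, 2.81 with TRAP1, 3.38 with JQ1, -0.55 with TRAP-1-NegB and -0.27 with MS78. For INSIG1 the values were 2.45, 1.75, 1.81, 0.75 and 1.08 in the same order. For LOC102723728 they were 2.10, 1.82, 1.40, 1.39 and 1.45, all upward from the low DMSO libraries described above.

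Between 2 and 4 h, TRAP-1-NegP's difference from the DMSO of its own time changed for 3476 genes (23.2%), with 1642 higher (11%) and 1834 lower (12.2%) at 4 h. That split was not firm. More genes were higher than lower with a correction for GC content and length (2151 and 1519), without the count filter (1799 and 1618), with DESeq2 size factors (1742 and 1712), by the DESeq2 Wald test (1803 and 1754) and in only the groups compared (2122 and 2107). INSIG1, at 2.45 at 2 h, stood at 3.91 at 4 h. BRD2 stood at 1.67 at 4 h, HEXIM1 at 1.62 and CDKN1A at 2.08, each larger than at 2 h by the test of the difference (0.71, 0.56 and 1.22). Sterol genes had 21 members higher at 4 h than at 2 h and 1 lower, with a median of 0.65, and BET inhibitor-induced genes 10 and 1. Ribosome biogenesis genes had 1 and 12, with a median of -0.21, and snoRNA host genes 0 and 7, with a median of -0.42. EGR1 stood at 1.66 at 4 h, below its change at 2 h by -0.54 ± 0.16, a smaller change at the later time.

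The largest differences between the times included genes of low level and genes whose DMSO levels differed between the times. LDLRAD2 averaged 9.11 against 0.464 CPM at 2 h (TRAP-1-NegP against DMSO) and 4.64 against 7.25 CPM at 4 h, a difference of effects of -4.94 ± 0.67. LOC100271836 had 6.06 against 16.1 CPM at 2 h and 13 against 6.74 CPM at 4 h (2.36 ± 0.42). GLI2, a Hedgehog transcription factor, had 6.52 against 6.15 CPM at 2 h and 1.22 against 8.49 CPM at 4 h (-2.88 ± 0.42), so its fall was present at 4 h and not at 2 h. TFCP2L1, a Grainyhead-like factor, had 6.53 against 6.94 CPM at 2 h and 13 against 3.05 CPM at 4 h (2.18 ± 0.32). NIPAL1 (2.31), FAM63B (2.05) and the sialidase NEU3 (2.03) were higher at 4 h than at 2 h in their difference from DMSO, and SH3TC1 (-2.30), LOC101928589 (-2.65) and LOC102723728 (-2.22) were lower. In DMSO libraries alone, 4 h minus 2 h was 1.59 for LOC102723728 and 2.03 for LOC101928589, whose difference between the times was not called in only the groups compared (adjusted p = 0.23).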

How the data were processed

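RNA of BxPC-3 cells was measured by polyA-selected, paired-end sequencing with 150-base reads, per the labels' protocols. The authors quantified genes with Salmon 1.10.3 through nf-core/rnaseq 3.18.0 against hg38, per the submitters' processing notes, while the sources used here do not give the annotation. Estimated counts per gene, not normalized, come from the deposited gene table, and the authors' gene TPM values, scaled for depth and length, were used for levels between genes and for quintiles of level. The authors' length-scaled counts, deposited as a second table of estimated counts, served as an alternative, and the scaled counts and transcript tables were not used. All 36 columns were matched to a sample by name, and 0 columns had none.

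After rounding, estimated counts went through edgeR 4.0.16 in R 4.3.3 (filterByExpr with a minimum count of 10, TMM, robust glmQLFit and glmQLFTest) over all 36 libraries, with 1 mean per compound and time. Tests were two-sided and Benjamini-Hochberg adjusted over 14988 genes within each of 5 comparisons, with calls under 0.05. SEs hold counting error and the spread between libraries together. The intervals are 95% intervals of the same fit. Totals of 15288688 to 26608325 estimated counts per library set the precision, and genes at a few CPM are the least certain. A floor of 3 counts over a group was used for groups at 0, and it covers counting error only.

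The comparison, its lists and the rule for named genes were chosen with earlier results of these data known. The rule named the 15 largest rises and falls with an adjusted p under 0.05, at least 5 CPM and no overlap, 5 per direction for other comparisons, up to 4 list members per direction by adjusted p, and 10 panel genes. FOS, JUND, HIST2H2AA3, CSF2, CCND2 and uncalled markers were named after their values were seen. Some genes that the rule names are not reported here. Same-numbered TRAP-1-NegP and DMSO libraries did not deviate together, so the numbers were not used as pairs. Alternatives were DESeq2 size factors, the DESeq2 1.42.0 Wald test, no filter, a stricter filter (1 CPM in a group and 10 counts in 3 libraries), a correction for GC content and length, the authors' length-scaled counts, the replicate number as a block, only the groups compared, and each library left out. Leaving out both libraries that stood apart, MS78 at 2 h replicate 1 and TRAP1 at 4 h replicate 1, was added after the data were seen. The procedure was tested on simulated data. For gene structure the GENCODE release v29 (GRCh38) was chosen here, and promoters are those of RefSeq on GRCh38.p14. Python 3.11.15, pandas 2.3.3 and matplotlib 3.10.9 were used for figures.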

Additional observations from a re-analysis of the deposited data

Results flagged for a closer look

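For 14 named genes, the effect of TRAP-1-NegP against DMSO at 4 h differed from that at 2 h by the test of the difference itself (edgeR, adjusted over all genes). The difference, 4 h minus 2 h on the log2 scale, was positive for FAM63B (2.05), NCR3LG1 (1.71), TMED8 (1.48), ZNF772 (1.14) and TRIM32 (0.94), all of which fell at 2 h. At 4 h their changes were 0.44, 0.01, -0.33, -0.67 and -0.82 in the same order, closer to 0 than at 2 h. These genes were picked as large falls at 2 h, and the same 2 h libraries enter the difference, which favours movement toward 0. The difference was also positive for INSIG1 (1.46), CDKN1A (1.22), RP11-362F19.1 (1.03), BRD2 (0.71) and HEXIM1 (0.56), all of which rose at 2 h and stood further from DMSO at 4 h.

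EGR1 (-0.54) rose less at 4 h than at 2 h, and GIMAP6 (-0.61) was further below DMSO at 4 h, at -2.47. LOC102723728 (-2.22) and LOC101928589 (-2.65) rose at 2 h and stood at -0.12 and 0.06 at 4 h. In DMSO libraries alone, 4 h minus 2 h was 1.59 and 2.03 for those genes, -1.25 for FAM63B, -1.55 for NCR3LG1 and -1.06 for TMED8. The part of the DMSO libraries in these differences was not tested.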

How the results depend on the processing

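Signs and calls were followed for named genes only, each in the comparison that named it. Among these no value changed sign under an alternative. A call was lost in 110 combinations of gene, comparison and alternative. Apart from the panel, these genes were named for being called, which favours a stable sign. In a comparison not followed for it, ZNF579 against DMSO, not called, stood at 0.09 and at -0.09 with the GC content and length correction. The balance of higher and lower calls turned in all 5 comparisons in only the groups compared, and in some without the count filter. TRAP-1-NegP against DMSO at 2 h called 4463 to 5864 genes over the alternatives and 3836 to 3904 without 1 library, against 4542. The replicate block gave 2418 higher and 2055 lower and is not a pairing, since same-numbered libraries correlated at only 0.011, 0.035 and 0.0001 in their deviations. TRAP-1-NegP minus JQ1 (1935 in all, 1088 higher, 847 lower) gave 1239, 688 and 551 with the GC content and length correction. It gave 3318 in all and 1695 lower in only the groups compared, and 1316 lower without both libraries that stood apart. Without 1 library it gave 1131 to 1723 in all, 583 to 991 higher and 534 to 732 lower. TRAP-1-NegP minus TRAP1 (120, 41 higher, 79 lower) gave 243, 104 and 139 with no filter, 463, 246 and 217 without both libraries, 1112, 662 and 450 in only the groups compared, and 233, 95 and 138 by the DESeq2 Wald test. Without 1 library it gave 54 to 79, 6 to 22 and 48 to 58. TRAP-1-NegP minus TRAP-1-NegB (2241 higher, 1589 lower) gave 2487 lower in only the groups compared, 1465 to 1773 higher and 1191 to 1735 lower without 1 library. For that comparison no filter gave 1716 higher and 1959 lower. The causes were not tested. With 3 libraries a group, genes of a few CPM limit what can be called.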

Other observations

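Other promoter motifs were counted on either strand of the same RefSeq windows, as descriptions. CCAAT stood in 46.3% of promoters of rises of at least 2-fold, in 34.6% of those of falls of at least 2-fold and in 36.7% of those of all tested genes. CACGTG stood in 6.78%, 10.99% and 9.90% of the same sets, and TGACGTCA in 2.82%, 1.65% and 3.19%. All 3 motifs occur also among the 27305 promoters of the whole table, at 35.7%, 7.43% and 1.98% in that order.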
